A study of Mus musculus with 4 samples.

Results

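The genes described here are 10 mouse transcription factor genes, namely Fos, Fosb, Fosl1 and Fosl2 of the Fos family, Jun, Junb and Jund of the Jun family, the related genes Atf3 and Maff, and the early growth response gene Egr1. They were chosen by name, but with earlier results of these data known. Their counts beside the shares of all genes are therefore descriptions and no test. Every probe set that the array's annotation lists for 1 of these symbols alone was read. This gave 14 of the 45037 probe sets and 10 of the 18193 genes on the array. Their RNA was measured in whole kidney. The 4 groups were Tet2KO mice after ischemia-reperfusion (IR), Tet2KO mice after sham surgery, wild-type (WT) mice after IR and WT mice after sham surgery, and all were male C57Bl/6 mice. IR meant 60 min without renal blood flow and 24 h of reflow. Every group is represented by a single array that pooled RNA of 3 mice, so no difference has a replicate check, no p-value is given, and precision is limited by how few arrays there are. The ages of the mice and the way the knockout was made are not given in the sources used here.

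AP-1 is a dimer of proteins with a basic region and a leucine zipper. Fos proteins pair with Jun proteins, and the dimer binds short palindromic sites in promoters and enhancers. EGR1 is a zinc finger protein that binds GC-rich sites. Many of these genes are immediate early genes: growth factors, stretch, stress and reflow of blood switch them on through MAP kinases and serum response factor without new protein synthesis, and their RNA is short-lived. In the kidney they are known as early responders to ischemia.

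All values are the authors' log2 signals per probe set, and a log2 ratio is the difference between 2 arrays. Signals under a floor of 5.72, the 40th percentile of all signals, were set to that floor. The gene's value came from its probe set with the highest mean signal. In counts, genes are called higher or lower from a 2-fold ratio onward. Technical error was estimated from genes with several probe sets, whose ratios scattered within a gene with an SD of 0.39 for IR over sham with the Tet2KO label, 0.24 for IR over sham in WT and 0.19 between the sham arrays. This technical SD does not cover differences between mice. In whole-kidney RNA, fewer cells of a type and less RNA per cell cannot be told apart.

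Tet2, which encodes an enzyme that oxidises methylated cytosine, was not lower in both of its probe sets in the sham array labelled Tet2KO. The log2 ratios of Tet2KO-labelled sham over WT sham were -0.09 and 0.41, and those of Tet2KO-labelled IR over WT IR were -0.41 and -0.70. Where these probe sets lie relative to the deletion is not known here, and one that lies outside it checks nothing. The groups are therefore called Tet2KO-labelled. The kidney label fitted its markers: all 10 proximal tubule and all 10 distal nephron markers were over the floor in every array. Over all probe sets the sham arrays correlated with r = 0.993.

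Promoter sequence was taken from RefSeq on build GRCm38.p6. It gave 10 start windows for 8 of the 10 genes, and none for Fosl1 or Egr1. Each window runs from 250 bases before to 50 after the start. Windows of Maff, Fosl2 and Fos are shown, since Maff and Fosl2 had the highest IR over sham ratios with the Tet2KO label among the genes over the floor in both arrays, and Fos had a ratio whose sign depended on the sham array. Each line gives the 100 bases before a start on the plus strand, 5′ to 3′. Maff is at chr15:79347420-79347519, 1 of its 3 listed starts, Fosl2 at chr5:32136372-32136471 and Fos at chr12:85473790-85473889. Capitals mark a motif found.
Maff: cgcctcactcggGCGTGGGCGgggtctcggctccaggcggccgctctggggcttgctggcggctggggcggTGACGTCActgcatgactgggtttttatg
Fosl2: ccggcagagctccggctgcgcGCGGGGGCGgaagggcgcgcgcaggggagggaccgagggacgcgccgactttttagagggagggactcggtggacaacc
Fos: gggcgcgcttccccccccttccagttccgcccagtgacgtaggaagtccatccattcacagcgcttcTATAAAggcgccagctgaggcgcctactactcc

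The motifs searched, on both strands, were the EGR element GCGNGGGCG, the cyclic AMP element TGACGTCA, the AP-1 element TGANTCA, the TATA motif TATAAA and the CArG box bound by serum response factor. None of the matches overlapped a match to another motif. The EGR element stood in 3 of the 10 windows, 1 each of Fosb, Fosl2 and Maff, against 5.55% of all 32851 promoter windows. TGACGTCA stood in 1 of the 10 windows, that of Maff shown here, against 1.79% of all windows, and the capitals of the Maff line show it nearer to the start than the EGR element. TATAAA stood in 2 of the 10 windows, those of Fos and Junb, against 13.6% of all windows. In Fos it lay before the start, at positions -33 to -28. In Junb it lay at positions 1 to 6, counted from the start base on. No window of the 8 genes held TGANTCA or a CArG box, which 7.81% and 1.63% of all windows held. Fosl1 and Egr1 had no window, and bases outside the windows were not searched. The 10 genes are therefore not shown to lack these sites. These matches are descriptions of the letters in the windows.

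Among the Fos family, Fosl1 and Fosl2 were highest in the Tet2KO-labelled IR array, Fos was highest in the WT sham array, and Fosb was below the floor everywhere. Fos encodes c-Fos, the founding member of the family. Its log2 signals were 8.39 in Tet2KO-labelled IR and 7.95 in Tet2KO-labelled sham, and 8.86 in WT IR and 9.53 in WT sham. So Fos was 1.35-fold higher after IR with the Tet2KO label and 1.59-fold lower after IR in WT. The range over the 4 arrays was set by the sham arrays, which held both its lowest and its highest signal.

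Fosl1 encodes Fra-1, a Fos protein without the transactivation domain of c-Fos. Its log2 signals were 8.32 in Tet2KO-labelled IR and 5.08 in Tet2KO-labelled sham, and 6.79 in WT IR and 5.16 in WT sham. Both sham arrays lay under the floor and both IR arrays over it. Fosl1 was therefore at least 6.07-fold higher after IR with the Tet2KO label and at least 2.10-fold higher after IR in WT, with either sham array as control. Its other probe set, 1417488_at, was over the floor only in Tet2KO-labelled IR, with log2 signals of 6.55 there, 5.18 in Tet2KO-labelled sham, 5.60 in WT IR and 5.26 in WT sham.

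Fosl2 encodes Fra-2, the other Fra protein. Its probe set 1437247_at had log2 signals of 9.79 in Tet2KO-labelled IR and 7.09 in Tet2KO-labelled sham, and 8.42 in WT IR and 8.06 in WT sham. The response to IR was 6.51-fold with the Tet2KO label and 1.28-fold in WT. Its other probe set, 1422931_at, showed almost none of this: 6.99 and 6.70 in the Tet2KO-labelled IR and sham arrays, and 7.01 and 6.79 in the WT IR and sham arrays. The ratios of that probe set, 0.29 and 0.23 on the log2 scale, lay within the technical SD of each comparison. Which Fosl2 transcripts the probe sets cover is not known here. Fosb, the remaining family member, had log2 signals from 4.44 to 4.76, all below the floor.

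In the Jun family, Jun was above the sham array of the same label in both IR arrays, by 2-fold or more only with the Tet2KO label. Junb and Jund were above both sham arrays in Tet2KO-labelled IR alone. Jun encodes c-Jun, which forms dimers with Fos proteins or with itself. Its probe set 1448694_at had log2 signals of 9.81 in Tet2KO-labelled IR and 8.29 in Tet2KO-labelled sham, and 9.60 in WT IR and 8.92 in WT sham. That is 2.86-fold with the Tet2KO label and 1.60-fold in WT. The other Jun probe set, 1417409_at, had the same array order, with log2 ratios of 1.87 and 0.31 in the same comparisons.

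Junb encodes a Jun protein that often restrains c-Jun. Its log2 signals were 8.69 in Tet2KO-labelled IR and 6.79 in Tet2KO-labelled sham, and 7.52 in WT IR and 8.04 in WT sham. Junb was 3.72-fold higher after IR with the Tet2KO label and 1.43-fold lower after IR in WT. Jund, the Jun gene with the steadiest expression in most tissues, had log2 signals of 11.96 in Tet2KO-labelled IR and 10.999 in Tet2KO-labelled sham, and 10.96 in WT IR and 11.17 in WT sham. Only the Tet2KO-labelled IR array stood apart, at 1.95-fold over its sham array, and the other 3 arrays lay within 0.21 of each other. The other Jund probe set, 1440265_at, had log2 signals from 5.58 to 5.74, close to or under the floor.

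Like Fosl1, Fosl2 and Jun, Atf3 and Maff had a greater signal in each IR array than in each sham array. For Atf3 this was not always by 2-fold. Atf3 encodes a stress-induced factor of the ATF/CREB family that can pair with Jun proteins. Its log2 signals were 8.09 in Tet2KO-labelled IR and 6.07 in Tet2KO-labelled sham, and 7.89 in WT IR and 7.09 in WT sham, so that the responses were 4.06-fold with the Tet2KO label and 1.74-fold in WT. The IR arrays were close together, and the sham arrays differed. Maff encodes a small Maf protein, which lacks a transactivation domain and pairs with other leucine zipper factors. It had log2 signals of 9.06 in Tet2KO-labelled IR and 6.08 in Tet2KO-labelled sham, and 7.82 in WT IR and 6.19 in WT sham. Here the sham arrays were alike, and IR over sham was 7.88-fold with the Tet2KO label and 3.10-fold in WT.

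Egr1, the zinc finger gene of the 10, had the widest contrast between the sham arrays among them. Its log2 signals were 10.60 in Tet2KO-labelled IR and 8.51 in Tet2KO-labelled sham, and 10.85 in WT IR and 11.45 in WT sham. The Tet2KO-labelled sham array stood alone at the low end, and the WT sham array was the highest. Egr1 was 4.28-fold higher after IR with the Tet2KO label and 1.51-fold lower after IR in WT.

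**Figure D1:**
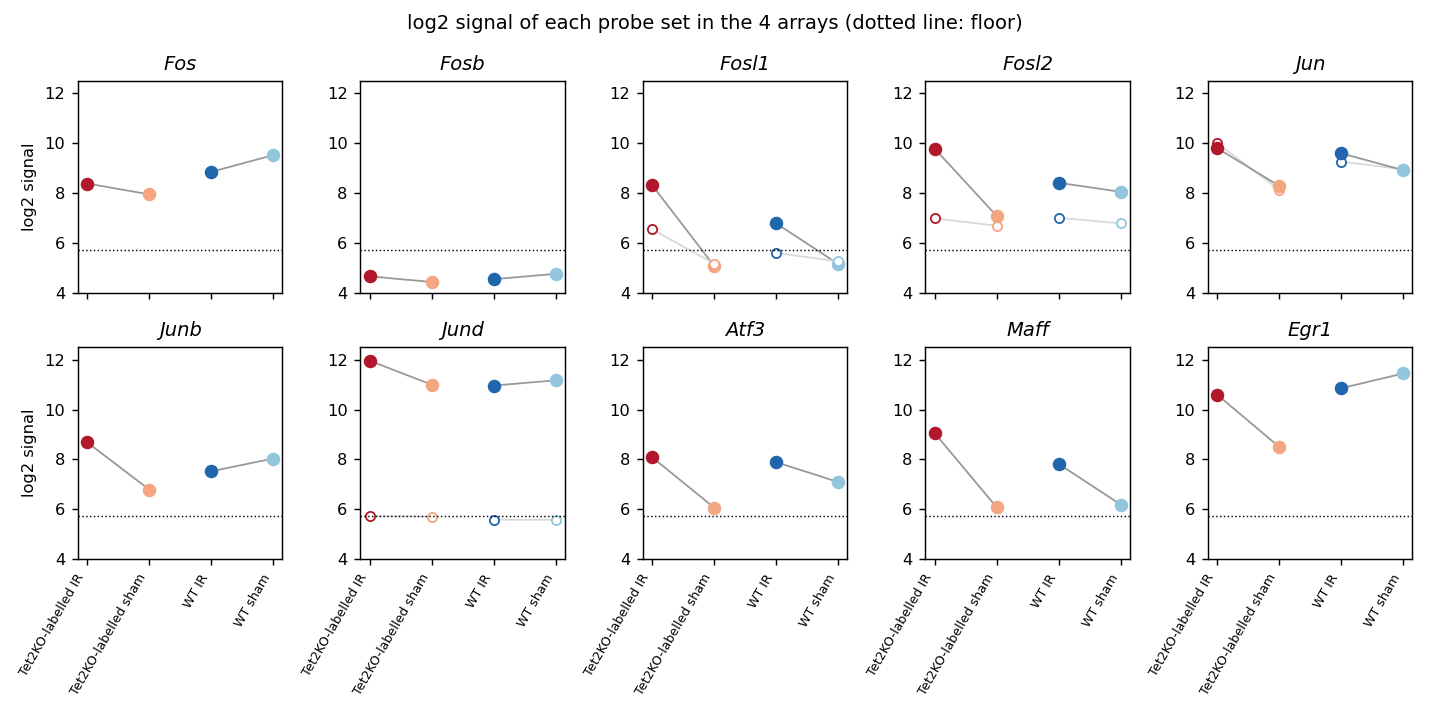
log2 signal of each probe set (y axis) in the 4 arrays (x axis), 1 panel per gene; filled points are the probe set used for the gene, open points its other probe sets, grey lines join IR with the sham array of the same genotype label, and the dotted line is the floor of 5.72. Maff and Fosl1 are low in both sham arrays, while Egr1 and Fos are lowest in Tet2KO-labelled sham and highest in WT sham.

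How far these genes differed after IR depended on which sham array was the control. Against Tet2KO-labelled sham, the Tet2KO-labelled IR array had 7 of the 9 measured genes 2-fold or more higher (Fosl1, Fosl2, Jun, Junb, Atf3, Maff and Egr1) and 0 lower, where 6.06% of all measured genes were higher and 6.89% lower. Their median log2 ratio was 2.02, against -0.02 over all genes. Against WT sham, the same IR array had only Fosl1, Fosl2 and Maff higher, 3 of 9, where 6.38% of all genes were higher. Fos, 1 of 9, was lower, by 2.20-fold, where 6.61% of all genes were lower. The median was then 0.89, against 0.00 over all genes.

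The WT IR array showed the same dependence. Against Tet2KO-labelled sham it had 6 of 9 genes higher (Fosl1, Fosl2, Jun, Atf3, Maff and Egr1) and 0 lower, where 2.02% of all genes were higher and 2.34% lower. The median log2 ratio was 1.31, against -0.01 over all genes. Against WT sham it had 2 of 9 higher, Fosl1 and Maff, and 0 lower, where 2.06% of all genes were higher and 2.18% lower. The median was 0.36, against 0.02 over all genes. These 4 comparisons share their arrays, so they are not independent of each other.

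The genes differed in how much the control mattered. Fosl1 and Maff were 2-fold or more higher than each sham array in WT IR, 2 of 9, where 1.39% of all genes were, and 0 were that much lower than each, where 1.47% of all genes were. In Tet2KO-labelled IR, Fosl1, Fosl2 and Maff were 2-fold or more higher than each sham array, 3 of 9, where 4.9% of all genes were, and 0 were that much lower than each, where 5.46% were. Maff had log2 ratios of 2.98 over Tet2KO-labelled sham and 2.87 over WT sham in the Tet2KO-labelled IR array, and of 1.74 and 1.63 over the same sham arrays in the WT IR array. Its response was thus nearly the same with either control.

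Egr1 and Fos turned sign with the control in both IR arrays. Egr1 had log2 ratios of 2.10 over Tet2KO-labelled sham and -0.85 over WT sham in Tet2KO-labelled IR. In WT IR it had 2.35 over Tet2KO-labelled sham and -0.59 over WT sham. Both IR arrays therefore lay between the sham arrays for this gene. For Fos the ratios of Tet2KO-labelled IR were 0.43 over Tet2KO-labelled sham and -1.14 over WT sham, and those of WT IR were 0.90 and -0.67. Junb turned sign in WT IR only, with 0.73 over Tet2KO-labelled sham and -0.51 over WT sham.

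**Figure D2:**
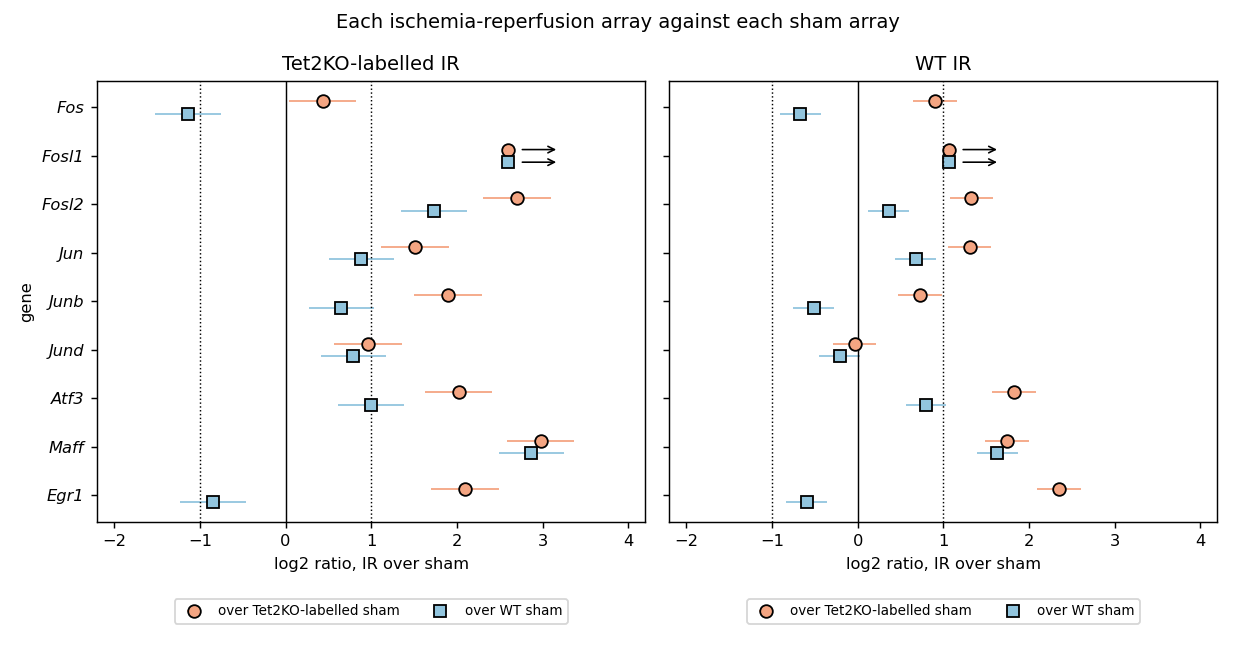
log2 ratio of Tet2KO-labelled IR (left) and WT IR (right) over each sham array (x axis) for the 9 measured genes (y axis); circles use Tet2KO-labelled sham, squares WT sham, bars are 1 technical SD of the comparison, arrows mark lower bounds and dotted lines 2-fold. Squares lie left of circles for every gene except Fosl1, whose sham signals are both at the floor.

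The sham arrays, set against each other, also differed in these genes. Of the 8 genes over the floor in 1 sham array or both, 4 were 2-fold or more lower in Tet2KO-labelled sham than in WT sham, where 0.846% of all 13474 measured genes were, and 0 were higher, where 0.186% were. Egr1 was 7.69-fold lower, the 6th lowest ratio of all measured genes. Fos was 2.97-fold lower, Junb 2.36-fold and Atf3 2.04-fold, and Atf3 was under the threshold, at -0.77 on the log2 scale, with a pseudocount of 32 in place of the floor. Fosl2, at 1.95-fold lower, stood just outside the threshold. The median log2 ratio of the 8 genes was -0.996, against 0.04 over all genes.

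Jun was 1.55-fold lower in Tet2KO-labelled sham than in WT sham, with a log2 ratio of -0.63, and its other probe set had -0.81. Jund, with -0.17, and Maff, with -0.11, differed by less than the technical SD of 0.19. Tet2KO-labelled sham was the lowest of the 4 arrays for 7 of the 9 genes, all but Jund and Fosl1, where 16.1% of all genes had their lowest signal in that array. WT sham was the highest array for Fos and Egr1, and Tet2KO-labelled IR for the other 7 genes. The shares of all genes with their highest signal in these arrays were not computed.

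**Figure D3:**
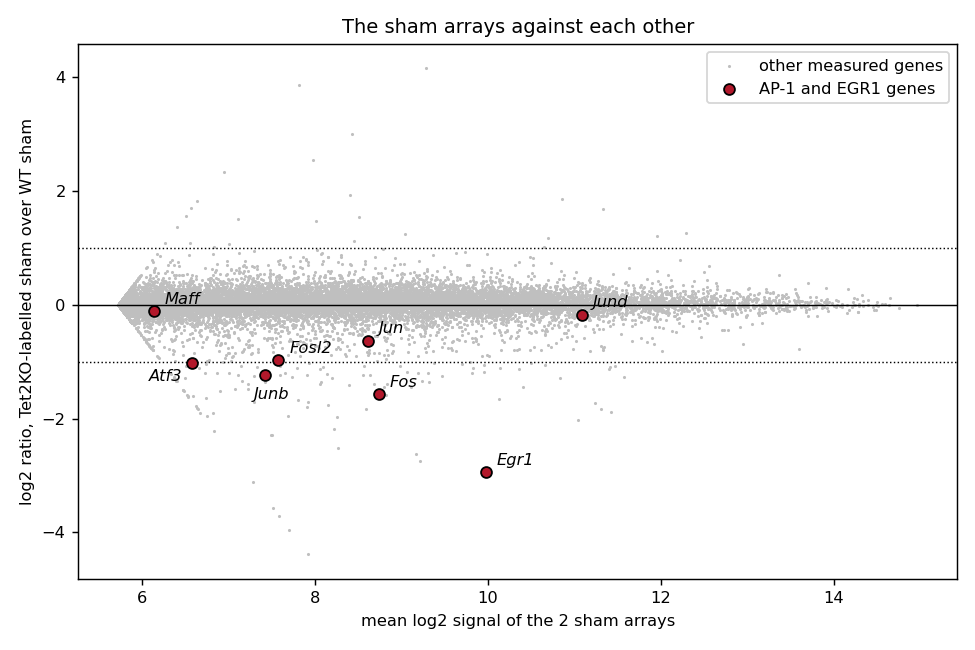
log2 ratio of Tet2KO-labelled sham over WT sham (y axis) against the mean log2 signal of the sham arrays (x axis) for every gene measured there; red points are the 8 AP-1 and EGR1 genes over the floor, and dotted lines mark 2-fold. All 8 red points lie below 0, with Egr1 at -2.94.

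Between the IR arrays the picture was another one. In Tet2KO-labelled IR, 5 of 9 genes were 2-fold or more higher than in WT IR, where 3.68% of all genes were, and 0 were lower, where 3.99% of all genes were. Fosl1 was 2.89-fold higher, Fosl2 2.59-fold, Maff 2.36-fold and Junb 2.24-fold. The second Fosl2 probe set showed no such difference (log2 ratio -0.02), and the median over both was 0.68, under the threshold. Jund stood at the threshold with 2.0014-fold, and the median over its probe sets was 0.51 on the log2 scale. The median log2 ratio was 1.001, against -0.01 over all genes. Jun, with 0.21, and Atf3, with 0.20, differed by less than the technical SD of 0.33, although the other Jun probe set had 0.75. Egr1, with -0.25, also differed by less than that SD, and Fos had -0.47. By the probe set used for each gene, Jun, Atf3 and Egr1 were nearest in level between the IR arrays. All of them differed between the sham arrays by more than the technical SD of 0.19. So did Fos, Junb and Fosl2, which were not as near between the IR arrays.

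The difference of the IR responses, Tet2KO label minus WT, equals the log2 ratio between the IR arrays minus that between the sham arrays. It was positive for all 9 measured genes and 2-fold or more for 8, where 4.75% of all genes were that much higher and 4.77% that much lower. The median was 1.35 on the log2 scale, against -0.03 over all genes. For Egr1, with a difference of 2.69, the sham contrast was -2.94 and the IR contrast of -0.25 lay within the technical SD. For Maff, with 1.35, the IR contrast was 1.24 and the sham contrast -0.11. For Fosl2, with 2.34, and Junb, with 2.41, the sham contrasts of -0.97 and -1.24 and the IR contrasts of 1.38 and 1.16 both entered, but the other Fosl2 probe set had a difference of only 0.07. Jun had 0.84, the smallest of the 9, and 1.56 in its other probe set. Fosl1 had 1.53, but with both sham signals at the floor this value, counted among the 8, is no bound.

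Other genes of the same program were read from lists made with earlier results of these data known. Of 28 other immediate early genes, all measured, 16 were 2-fold or more higher in Tet2KO-labelled IR over Tet2KO-labelled sham and 0 lower. Over all genes 6.06% were higher and 6.89% lower there. The median ratio of the 28 genes was 1.22 on the log2 scale. In WT IR over WT sham 3 were higher and 2 lower, where 2.06% and 2.18% of all genes were, and the median was 0.01. Between the sham arrays 4 were lower with the Tet2KO label and 0 higher, where 0.846% and 0.186% of all genes were, with a median of -0.26. In each comparison these medians lay on the same side of 0 as those of the 10 genes and nearer to 0.

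Some of the other immediate early genes did not depend on the sham array. Myc, a regulator of growth and proliferation, had log2 signals of 9.71 in Tet2KO-labelled IR and 7.15 in Tet2KO-labelled sham, and 9.43 in WT IR and 7.25 in WT sham. Ccn1, a matricellular protein gene, had 10.38 and 8.30 in the Tet2KO-labelled IR and sham arrays, and 10.50 and 8.46 in the WT IR and sham arrays. Both IR arrays were high and both sham arrays low for these genes. Across the 4 probe sets of Ccn1 the log2 ratio of IR over sham lay between 0.35 and 2.09 with the Tet2KO label and between 0.63 and 2.24 in WT.

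Klf6, a zinc finger factor gene, had log2 ratios of IR over sham of 2.88 with the Tet2KO label and 1.25 in WT, with its 5 probe sets between 1.02 and 3.15 and between 0.02 and 1.34. Plk3, a stress kinase gene, had 2.85 and 0.24, and Dusp5, a phosphatase gene that acts on ERK, had 2.02 and 0.70. Dusp1, a phosphatase that switches off JNK and p38, stood out in the other direction. Its log2 signals were 11.53 in Tet2KO-labelled IR and 10.94 in Tet2KO-labelled sham, and 9.78 in WT IR and 12.01 in WT sham. Like Fos and Egr1 it was highest in WT sham, but it was lowest in WT IR.

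Of 14 further relatives (other leucine zipper genes, other EGR genes and the EGR co-repressors Nab1 and Nab2), 12 were measured, and 0 were 2-fold higher or lower in either IR over sham comparison or between the sham arrays. Over all genes 6.06% were higher and 6.89% lower with the Tet2KO label, 2.06% and 2.18% in WT, and 0.186% and 0.846% between the sham arrays. For 12 genes a count of 0 is not far from these shares. The median log2 ratios of the 12 genes were -0.09 for IR over sham with the Tet2KO label, -0.09 in WT and -0.06 between the sham arrays. Egr2 and Creb5 were below the floor in every array. Egr3, whose values are given here after they were seen, had log2 signals of 6.80 in Tet2KO-labelled IR and 6.94 in Tet2KO-labelled sham, and 6.86 in WT IR and 6.94 in WT sham, and so differed by less than the technical SD. Mafg and Mafk, the other small Maf genes, also chosen after their values were seen, had IR over sham ratios of 0.68 and 0.60 with the Tet2KO label, and of -0.27 and 0.15 in WT, smaller than those of Maff.

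Upstream of these genes, 20 of 21 genes for serum response factor, its partners and MAP kinases were measured. With the Tet2KO label 1 was higher after IR, the SRF co-activator gene Mrtfa with a log2 ratio of 1.17, and 1 was lower, the p38 kinase activator gene Map2k6 with -1.61. These counts are close to the shares over all genes, 6.06% higher and 6.89% lower. In WT 0 were 2-fold higher or lower after IR, where 2.06% of all genes were higher and 2.18% lower. Between the sham arrays it was also 0, where 0.186% and 0.846% were. Of 20 genes on the array that are often described as AP-1 or EGR1 targets, Fosl1 itself among them, 18 were measured with the Tet2KO label, where 10 were higher after IR and 0 lower, with a median of 1.10. In WT 17 were measured, of which 5 were higher and 0 lower, where 2.06% and 2.18% of all genes were, and the median was 0.41. Between the sham arrays 0 of 16 reached 2-fold, where 0.186% of all genes were higher and 0.846% lower.

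Among the described targets, the hyaluronan receptor gene Cd44 had log2 signals of 9.60 in Tet2KO-labelled IR and 5.60 in Tet2KO-labelled sham, and 8.10 in WT IR and 5.81 in WT sham. Its 3 probe sets disagreed, with IR over sham ratios from 0.45 to a lower bound of 3.88 with the Tet2KO label and from 0.00 to 2.28 in WT. The protease inhibitor gene Timp1 had ratios of 3.02 with the Tet2KO label and 1.998 in WT, the WT value being a lower bound. Plaur, the urokinase receptor gene, had 3.06 and 0.94, and Hmox1, the haem oxygenase gene, had 2.24 and a lower bound of 1.42. Vim, which encodes vimentin, had 1.76 with the Tet2KO label and -0.45 in WT.

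**Figure D4:**
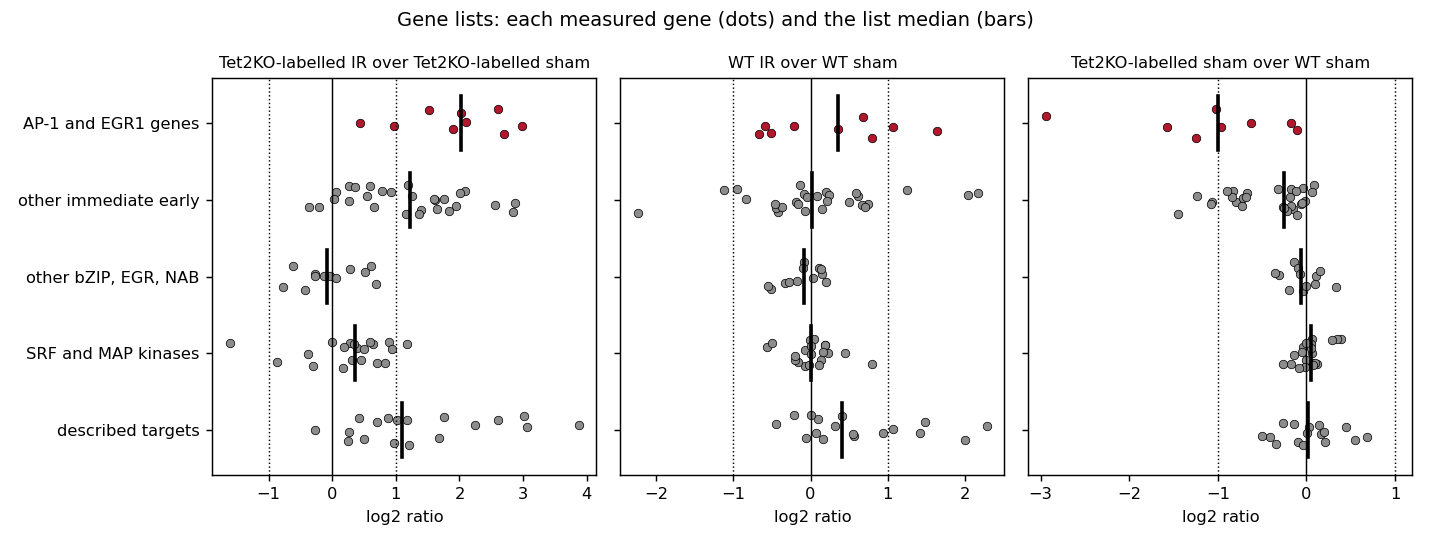
log2 ratio (x axis) of each measured gene in 5 gene lists (rows) for Tet2KO-labelled IR over Tet2KO-labelled sham, WT IR over WT sham and Tet2KO-labelled sham over WT sham (panels); black bars are list medians and dotted lines 2-fold. The AP-1 and EGR1 genes have medians of 2.02, 0.36 and -0.996, and the other leucine zipper, EGR and NAB genes stay within 2-fold in all 3 panels.

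The genes whose patterns over the 4 arrays lay nearest to those of Fos and Egr1 were sought among 13807 genes, by the Euclidean distance between log2 signals centred on each gene's mean. Nearest to Fos were Hspa1a at 0.15, Ehf at 0.20, Upk3a at 0.28, Muc1 at 0.29 and Atp10b at 0.37. Nearest to Egr1 were Hspa1b at 0.83, Ly6d at 0.94, Muc1 at 1.06, Plet1 at 1.11 and Cryab at 1.13. Hspa1a and Hspa1b encode inducible heat shock proteins of near-identical sequence, whose probe sets may share transcripts, and Cryab a small heat shock protein. Upk3a encodes a uroplakin of the urothelium and Muc1 an epithelial mucin. For Hspa1a the log2 signals were 8.51 in Tet2KO-labelled IR and 8.07 in Tet2KO-labelled sham, and 8.81 in WT IR and 9.53 in WT sham. Other probe sets of these genes disagreed, with log2 ratios of the sham arrays between -1.39 and 0.10 for Ehf, -1.23 and 0.00 for Atp10b, and -1.65 and -0.38 for Plet1.

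Markers of tissue next to the kidney also differed between the arrays, and their order was not the same as that of these genes in every comparison. Of 8 adipose markers on the array, 6 were over the floor in Tet2KO-labelled IR and 2 in Tet2KO-labelled sham, and 2 in WT IR and 7 in WT sham. Their summed linear signals were 9959 in Tet2KO-labelled IR and 1622 in Tet2KO-labelled sham, and 800 in WT IR and 7810 in WT sham. Fabp4 had the highest signal of the 8 in every array and weighs most in these sums. Its 3 probe sets disagreed, with log2 ratios of the sham arrays between -1.84 and 0.21. For Tet2KO-labelled IR over WT sham, Cidec alone of 7 measured markers was 2-fold higher, where 6.38% of all genes were. Cidea, Ucp1 and Cox8b, 3 of 7, were 2-fold lower, where 6.61% were. The fat cell genes Adipoq, Cidea and Cidec were below the floor in Tet2KO-labelled sham and in WT IR. For WT IR over Tet2KO-labelled sham, the arrays with 2 adipose markers each over the floor, the log2 ratios of the 9 measured genes ran between -0.04 for Jund and 2.35 for Egr1, with Junb at 0.73 and Fos at 0.90, and 6 were 2-fold or more higher. Adipose signal was not equal in this pair, with Fabp4 2.70-fold lower in WT IR. In the same comparison 0 of 7 measured urothelial markers were 2-fold higher or lower, with a median log2 ratio of 0.37. Of 9 tubular injury markers 8 were higher, and over all genes 2.02% were higher and 2.34% lower. The part of fat tissue, urothelium or injury in these ratios was not tested.

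Of 9 urothelial markers, 7 were over the floor in Tet2KO-labelled IR, WT IR and WT sham and 6 in Tet2KO-labelled sham, and Krt14 and Trp63 were below it in every array. Their summed linear signals were 1138 in Tet2KO-labelled IR and 731 in Tet2KO-labelled sham, and 935 in WT IR and 1640 in WT sham, the same array order at both ends as Fos and Egr1. Between the sham arrays 4 of 7 measured urothelial markers and 5 of 7 adipose markers were 2-fold or more lower with the Tet2KO label, and none of these was higher. Over all measured genes 0.846% were lower and 0.186% higher. Among 9 tubular injury markers, 3 were lower, Havcr1 by 2.52, S100a6 by 2.74 and Krt18 by 2.18 on the log2 scale. The 2 probe sets of Havcr1 had log2 ratios of -2.52 and -1.375. In the 11 other marker lists, which cover nephron segments, podocytes, vessels, stroma, blood cells, muscle and adrenal gland, 0 of 64 measured genes differed 2-fold between the sham arrays. That count is near the shares over all genes. After IR in WT, 3 of 67 genes of these lists were 2-fold higher and 18 lower, where 2.06% and 2.18% of all genes were. With the Tet2KO label 9 of 69 were higher after IR and 23 lower, where 6.06% and 6.89% of all genes were. In Tet2KO-labelled IR over WT IR, 17 of 68 were higher and 14 lower, where 3.68% and 3.99% of all genes were. Podocyte markers summed to 3039.5 in Tet2KO-labelled IR and 2051 in Tet2KO-labelled sham, and in WT to 462.5 after IR and 1878.8 after sham. Endothelial markers summed to 2347.5 in Tet2KO-labelled IR and 2972.5 in Tet2KO-labelled sham, and in WT to 957.8 after IR and 3122.8 after sham. What urothelium or injury contributed to the sham difference, or the cell types of these lists to the IR ratios, was not tested.

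Tubular injury markers had summed linear signals of 61375 in Tet2KO-labelled IR and 2367 in Tet2KO-labelled sham, and 33054 in WT IR and 5206 in WT sham. After IR 9 of 9 were higher with the Tet2KO label and 7 of 9 in WT, where 6.06% and 2.06% of all genes were. Proximal tubule markers summed to 51212 in Tet2KO-labelled IR and 87136 in Tet2KO-labelled sham, and to 71892 in WT IR and 87404 in WT sham. The order of injury signals, highest in Tet2KO-labelled IR, then WT IR, WT sham and Tet2KO-labelled sham, was also that of Fosl2, Jun, Atf3 and Maff. The part of injury in these ratios was not tested.

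**Figure D5:**
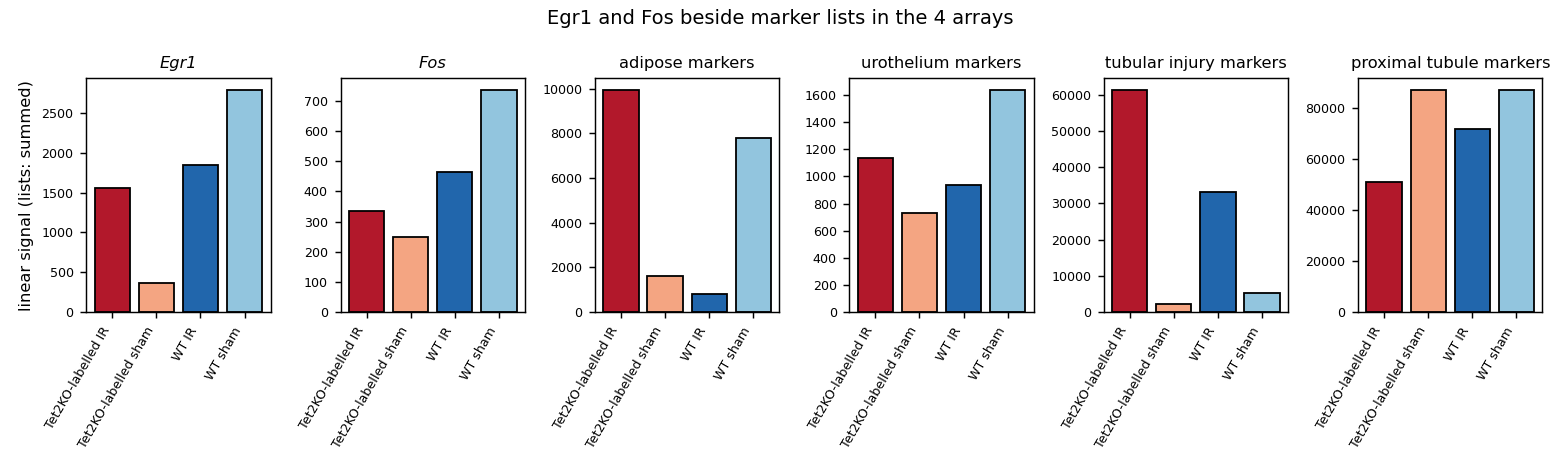
Linear signal of Egr1 and Fos and summed linear signal of 4 marker lists (y axes, each starting at 0) in the 4 arrays (x axis); each bar is 1 array of pooled RNA. Egr1, Fos and urothelial markers are highest in WT sham and lowest in Tet2KO-labelled sham, while adipose markers are low in Tet2KO-labelled sham and WT IR.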

How the data were processed

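Kidney RNA was hybridised to Affymetrix arrays, 1 per group, with RNA of 3 mice pooled per array, per the labels. The authors deposited 45037 log2 signals per array, which lay between 2.51 and 14.97, and the log2 scale was read from the values. The submitters' processing notes name MAS5 with no version, and the scaling between arrays is not given in the sources used here. Column medians lay between 6.28 and 6.33. Exactly 1 symbol was listed for 34945 probe sets, 932 had several and 9160 none. For each gene the probe set with the highest mean was used, with the suffix _x_at only where no other existed. A gene was measured in a comparison if 1 or more of its arrays reached the floor, the 40th percentile, and a fold against a signal below it is a lower bound. No count model or test was run. Ratios were computed with Python 3.11.15, pandas 2.3.3 and numpy 2.4.6, after tests on simulated data. Named were the 10 genes, up to 6 genes per list with the largest ratio of 2-fold or more, and the 5 genes nearest in pattern to Fos and to Egr1. The members and lists were chosen with earlier results of these data known. Alternatives covered probe set choice, floor, pseudocount, scaling and threshold.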

Additional observations from a re-analysis of the deposited data

Results flagged for a closer look

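The IR response had opposite signs under the 2 genotype labels for 4 of the 9 measured genes. The share of all genes with opposite signs was not computed, so this count has no background to compare it with. In each case the difference was not tested, since each response rests on 1 array against 1 array. The differences, Tet2KO label minus WT, were 2.69 for Egr1, 2.41 for Junb, 1.17 for Jund and 1.10 for Fos on the log2 scale. For Egr1 and Fos the sign within each genotype depended on the sham array used, as given above. For Jund the WT ratio of -0.21 lay within the technical SD of 0.24, so its sign there is not settled by these arrays.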

How the results depend on the processing

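No paired analysis was possible because each group has 1 array. Of 283 recomputed gene ratios that were 2-fold or more, 283 kept their sign and 274 stayed at 2-fold or more. The other 9 belonged to Fosl2, Jund and Atf3. The median over the probe sets of a gene gave Fosl2 log2 ratios of 0.82 for WT IR over Tet2KO-labelled sham, 0.97 for Tet2KO-labelled IR over WT sham and 0.68 between the IR arrays, and gave Jund 0.51 between the IR arrays and 0.59 for the difference of the responses. With that setting the median ratio between the IR arrays was 0.51, with 3 genes higher, where 3.19% of all genes were. With a floor at the 20th percentile, which also admits Fosb, the medians were 0.087 for IR over sham in WT, -0.80 between the sham arrays and 0.60 between the IR arrays. With a pseudocount of 32 the median between the sham arrays was -0.80, Atf3 had -0.77 there and 0.94 for the difference of the responses, and Jund had 0.99 between the IR arrays. Centring the columns on their median gave Jund 0.96 there. With genes over the floor in all arrays compared, the median for IR over sham in WT was 0.076, because Fosl1 drops out. There 1 gene was higher, where 1.95% of all genes were. At a threshold of 1.5-fold, IR over sham in WT had 4 genes higher and 2 lower, where 5.98% of all genes were higher and 6.29% lower. Tet2KO-labelled IR over WT sham had 7 higher and 2 lower at that threshold, where 15.7% of all genes were higher and 14% lower. Under these alternatives 50 of 56 medians moved by less than the technical SD, and 106 of 112 counts of higher or lower genes stayed within 1.5 times. Part of this stability, also that of the 283 ratios, was fixed in advance. Leaving out probe sets with a letter before _at changed nothing, since these genes have none. The 1.5-fold threshold changed no ratio or median. Requiring the floor in all arrays only dropped genes, and the 20th percentile floor altered only signals under the main floor. Replicate arrays, of which there were none, would be needed for an error between mice.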
